A study of Mus musculus with 2 samples.

Results

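The cells described here were chosen by a rule on marker genes of the kidney epithelium downstream of the proximal tubule. They come from a single-cell RNA-seq data set of MRL-lpr mice. A cell was taken if it had a UMI (a unique molecule count) in at least 3 of the 12 genes Epcam, Cdh16, Umod, Slc12a1, Slc12a3, Aqp2, Hsd11b2, Krt7, Krt19, Atp6v1g3, Foxi1 and Calb1, no UMI of the leukocyte gene Ptprc, and a UMI in at most 2 of the 5 proximal tubule genes Lrp2, Slc34a1, Cubn, Slc22a6 and Slc27a2. This gave 226 of 21661 cells, of which 69 of 11429 came from the young library and 157 of 10232 from the old library. The levels of these 18 genes chose the cells and are given below as a description only.

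Both libraries were made from pooled kidneys of MRL-lpr mice, which carry the lpr mutation of the death receptor gene Fas and develop lupus nephritis with age. One library is labelled young and the other old, and no mice of another strain or genotype were in these libraries. The cell suspensions had been enriched for leukocytes on a density gradient and for innate lymphoid cells with a kit, and live cells were sorted, so the tubular cells are those left behind by an enrichment for other cells. Each age is a single library, so the spread among mice is unknown and no test was made. Levels are given as UMIs per 1000000 UMIs of the class (CPM), and all intervals are exact 95% intervals that cover counting error only.

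The thick ascending limb reabsorbs sodium chloride through the cotransporter NKCC2, encoded by Slc12a1, and secretes uromodulin into the urine. The distal convoluted tubule that follows takes up salt through the cotransporter NCC, encoded by Slc12a3, and the connecting tubule takes up calcium. The collecting duct holds principal cells, which move water through aquaporin-2, and intercalated cells, which move acid and base through a proton pump. The renal pelvis is lined by urothelium, whose surface is covered by uroplakins. In lupus nephritis all of these epithelia lie beside infiltrating leukocytes, and interferons induce in epithelial cells the genes of antigen presentation and a set of guanylate-binding and immunity-related GTPases.

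The letters of an interferon-stimulated response element, searched as GAAA, any 2 bases and GAAA on both strands in the 250 bases before each gene's start, stood in 7 of 12 matched genes of the interferon response list, in 1 of 8 matched genes of the antigen presentation list and in 3.46% of 27025 genes with a RefSeq window. The windows of 3 of the genes with this motif whose levels were higher in the old cells are shown, in RefSeq sequence on GRCm38.p6 (mm10, the build of the files). Each line is a stretch of 100 bases within the 250 before the gene's start, written 5′ to 3′ on the gene's strand, with the motif in capitals. In Igtp, the first run of capitals is a gamma-activated site, searched as TTCNNNGAA, which stood in 8.13% of genes.
B2m, chr2:122147503-122147602, plus strand: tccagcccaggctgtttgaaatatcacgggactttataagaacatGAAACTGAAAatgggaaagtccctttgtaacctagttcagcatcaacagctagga
Cxcl10, chr5:92349040-92349139, minus strand: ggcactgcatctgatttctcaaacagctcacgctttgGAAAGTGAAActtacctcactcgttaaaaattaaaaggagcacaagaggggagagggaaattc
Igtp, chr11:58199456-58199555, plus strand: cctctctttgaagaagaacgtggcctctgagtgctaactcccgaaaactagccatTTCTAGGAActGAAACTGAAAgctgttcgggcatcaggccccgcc

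These are the genes of the class I light chain, of a chemokine for T cells and of an immunity-related GTPase. Its first base lies 139, 213 and 34 bases before the start of B2m, Cxcl10 and Igtp. The motif stood in Isg15, Ifit1, Ifit3, Gbp2 and Gbp3 too. Among matched marker genes it stood in 1 of 8 of the thick ascending limb list (Casr). It stood in 1 of 12 of the distal convoluted tubule list (Kcnj16) and in none of 5 of the urothelial list. The share in the thick ascending limb list was thus the same as in the antigen presentation list. A match of letters is a description of the sequence and not a measured binding site.

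The selected cells were deeply sequenced. The median was 11372 UMIs and 3563 genes per young cell and 19592 UMIs and 4604 genes per old cell, with ranges of 879 to 28629 and 933 to 60482 UMIs. None of the selected cells was called a doublet by Scrublet, which called 328 young and 246 old cells of all kept cells. The libraries shared 26 barcodes among kept cells and none among the selected cells. A further 85 young and 45 old cells met the rule on the 12 genes and had no Ptprc UMI, but were left out for 3 or more proximal tubule genes, and 14 young and 57 old cells were left out for a Ptprc UMI. At the edge of the rule, 32 young and 32 old cells were taken with exactly 3 of the 12 genes, and 12 young and 15 old cells that met the other limits had exactly 2.

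RNA from other cells was present in the droplets. Kap, an androgen-regulated gene of the proximal tubule, had a UMI in 68 of 69 young and 154 of 157 old selected cells, with 1088 and 291 CPM against 49572 and 38055 CPM in proximal tubule cells. Igkc, an immunoglobulin light chain gene, had a UMI in 1 young and 114 old selected cells, with 1.18 and 96.0 CPM. Of 8 leukocyte markers, 5 had a UMI in the young and 6 in the old cells, with a summed level per cell of 0 to 129 CPM and 0 to 266 CPM and a median of 0 in both. Ptprc was at 0 by the rule, Cd3e and Il7r were at 0 in the young cells and Cd79a in the old cells. The summed level of 3 erythroid genes reached 337486 CPM in a young and 143 CPM in an old cell, with a UMI in 15 young and 6 old cells. For 6 endothelial genes it reached 8056 and 207 CPM, with a UMI in 4 young and 7 old cells. Umod had a UMI in 3.02% of young and 4.71% of old proximal tubule cells and in 1.14% and 2.52% of Ptprc-positive cells, where the median depth was 14847 and 15454.5 UMIs in proximal tubule cells and 4933.5 and 5280 UMIs in Ptprc-positive cells.

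The methods name female mice as the general rule. However, 29 young and 66 old selected cells had a UMI of a Y-linked gene (Uty, Ddx3y, Kdm5d or Eif2s3y) and none of Xist, and 21 young and 61 old cells had a UMI of Xist and no Y-linked UMI. Both kinds of cell occurred in each of the larger groups below, so some of the differences between the ages are also given within each kind.

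When sorted by selective markers of each segment, the cells fell mainly into 3 groups, and 1 of these, the urothelium, is not a nephron segment or a collecting duct. Cells with markers of the thick ascending limb (TAL-like) made up 27 of 69 young cells (39.1%, 27.6% to 51.6%) and 42 of 157 old cells (26.8%, 20.01% to 34.4%). Cells with markers of the distal convoluted and connecting tubule (DCT-CNT-like) made up 3 young cells (4.35%, 0.906% to 12.2%) and 68 old cells (43.3%, 35.4% to 51.4%). Cells with uroplakins and other urothelial markers (urothelium-like), which entered through Epcam, Krt7 and Krt19, made up 26 young cells (37.7%, 26.3% to 50.2%) and 28 old cells (17.8%, 12.2% to 24.7%).

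Few cells were sorted as principal or intercalated cells of the collecting duct. Only 2 young cells were principal-like, with 172 UMIs of Aqp2 between them, and 1 young cell was intercalated-like, with 43 UMIs of the proton pump subunit gene Atp6v1g3. No old cell was in either group, which for 157 cells allows a share of up to 1.91% by 3 counts, or 2.32% by the exact interval. A further 4 young cells and 1 old cell had high Akap12 and Ncam1. They were sorted by Cldn1, Ncam1 and Akap12, genes of the parietal epithelium list, so they may not lie downstream of the proximal tubule. Another 4 young and 9 old cells had high Cryab, and 2 young and 9 old cells were not assigned. The Cryab-high cells held Fxyd4, a gene also known from the collecting duct, with 133 UMIs in 9 of 13 cells, but no UMI of Aqp2, Aqp3 or Hsd11b2, and their segment was not settled. The share of a library made up by the selected cells was 0.604% (0.470% to 0.763%) in young and 1.53% (1.31% to 1.79%) in old, after an enrichment that can set such shares by itself.

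**Figure D1:**
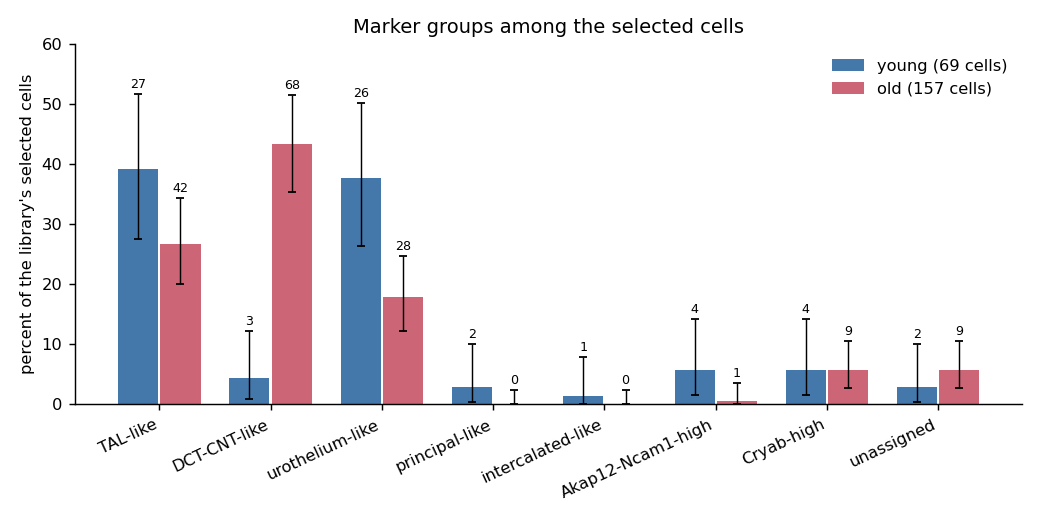
Share of each library's selected cells (percent, vertical axis) in each marker group (horizontal axis), young in blue and old in red, with exact 95% intervals for counting error and the number of cells above each bar. DCT-CNT-like cells made up 4.35% (young) and 43.3% (old), and principal-like and intercalated-like cells 3 young cells and no old cell.

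The salt cotransporters divided the cells almost without overlap. Slc12a1 lies at chr2:125152505-125230002 and Slc12a3 at chr8:94329201-94366214 (mm10, GENCODE M21). In the young library 27 cells had UMIs of Slc12a1 alone, 3 of Slc12a3 alone and none of both, and in the old library 43, 69 and 3 cells did, with at most a single UMI of the second gene in the 3 cells that had both. The other 39 young and 42 old cells had neither.

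**Figure D2:**
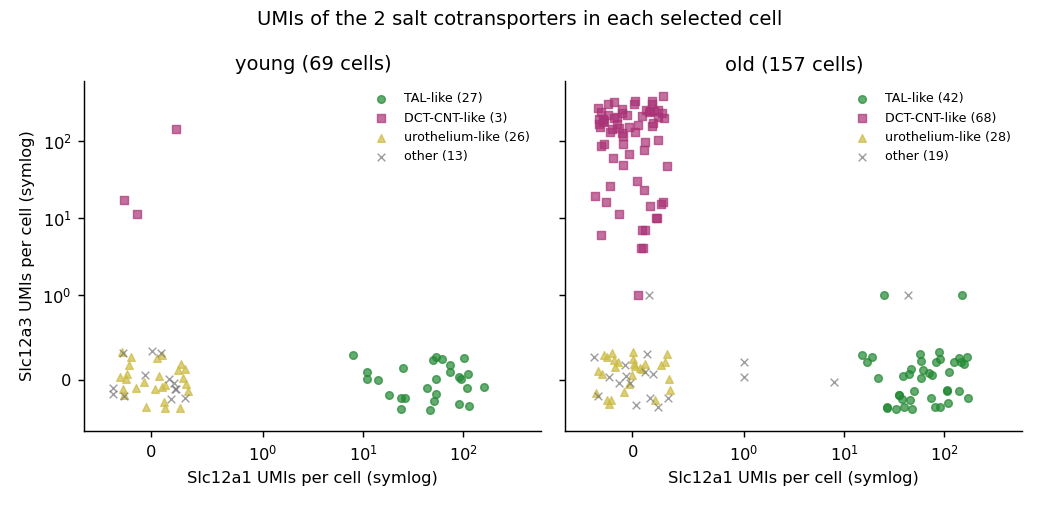
UMIs of Slc12a1 (horizontal axis) and Slc12a3 (vertical axis) in each selected cell of the young (left) and old (right) library on symmetric log scales, with a random spread around 0 for display and marker shapes for the groups. TAL-like and DCT-CNT-like cells lie along separate axes, and urothelium-like cells lie at 0 of both genes.

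The TAL-like cells were sorted by markers of the thick ascending limb, so the levels of these markers at both ages are a description. Slc12a1 was at 4608 CPM (4384 to 4840) in young TAL-like cells and 4229 CPM (4082 to 4380) in old ones, with 1420, 4099 and 10445 CPM in the lowest, median and highest young cell and 855, 4009 and 12344 CPM in the old. Umod, the gene of uromodulin, was at 18083 and 18687 CPM, and had a UMI in 26 of 27 and 42 of 42 cells. Egf, the precursor of epidermal growth factor and a product of this segment, was at 4985 and 5225 CPM. The ranges of young and old cells overlapped for each of these genes, though single cells of either age lay beyond the other's range. The small log2 ratios changed sign between subsets, with Slc12a1 at 0.19 and −0.36, Umod at 0.49 and −0.16 and Egf at 0.55 and −0.42 in cells with an Xist UMI and with a Y-linked UMI, and Egf at −0.15 among cells with no proximal tubule UMI.

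Of the 11 genes of the thick ascending limb list, none was 2-fold apart between the ages in TAL-like cells, and their median log2 ratio (old over young) was 0.05. Among all 3354 genes with at least 50 UMIs in these cells, 3.64% were at least 2-fold higher and 1.97% at least 2-fold lower in the old cells. The potassium channel gene Kcnj1 (log2 ratio −0.27, −0.53 to −0.02) and the claudin genes Cldn16 (0.26, −0.09 to 0.62) and Cldn19 (0.18, −0.17 to 0.54), which form the paracellular path for calcium and magnesium, stood close to 0. Of the 8 distal convoluted tubule genes tested in these cells, the calcium-binding protein gene Pvalb was 2-fold lower, from 72 UMIs in 11 young cells to 69 UMIs in 15 old cells (−1.16, −1.66 to −0.67). Klk1, the gene of tissue kallikrein, was at 4756 and 9143 CPM (0.94, 0.86 to 1.02).

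The TAL-like cells were not uniform within a library. Cldn10, a claudin of the sodium path, had a UMI in 15 of 27 young and 24 of 42 old cells, and Ptger3, a prostaglandin E receptor gene, was found with it in 12 young and 19 old cells and alone in 1 and 2. Cells with Ptger3 held 280 young and 440 old UMIs of Cldn10. Cldn16 was found with Cldn10 in 10 young and 20 old cells, without it in 12 and 18, and Cldn10 was found without Cldn16 in 5 and 4.

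The DCT-CNT-like cells were nearly all from the old library, so their levels are mainly a description of old cells. Slc12a3 was at 6088 CPM (5968 to 6210) in the 68 old cells, with 229, 6209 and 23122 CPM in the lowest, median and highest cell, and at 5449 CPM (4665 to 6327) in the 3 young cells. Pvalb had a UMI in 58 of the old cells, at 2327 CPM, and Calb1, the gene of the calcium-binding protein calbindin, was found with Pvalb in 40 old cells, alone in 3 and absent beside Pvalb in 18. S100g, another calcium-binding protein gene, was found in 29 old cells, and the calcium channel gene Trpv6 and the exchanger gene Slc8a1 in 7 and 8. The 3 young cells held 310 UMIs of Calb1 and 44 of Slc8a1, against 435 and 10 in the 68 old cells. The young cells were too few for a comparison of ages in this group.

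Leading genes of the DCT-CNT-like cells among the selected cells, other than the markers used, were the homeobox genes Emx1 and Lhx1, the phosphoglycerate mutase gene Pgam2, the prostaglandin F receptor gene Ptgfr, the leukotriene C4 synthase gene Ltc4s and the ammonia transporter gene Rhcg. Emx1 had 453 UMIs in 61 of 71 cells and none in the other 155 selected cells. Ltc4s had 598 UMIs in 53 of 71 cells and 18 UMIs in the rest, and Rhcg 218 UMIs in 55 cells and 9 in the rest. Umod was also present in these cells, at 4591 CPM in 67 of 68 old cells, while the 28 old urothelium-like cells of the same library held no Umod UMI. The DCT-CNT-like cells had been sorted by Slc12a3, Pvalb, Trpm6, Calb1, S100g, Slc8a1 and Trpv5. The leading genes were picked from the same cells and Umod was a rule gene, so their levels between groups are a description.

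The urothelium-like cells were sorted by the 9 markers of the urothelial list and expressed all of them. The levels of these markers in each group and at both ages are therefore a description. Upk3a, the gene of uroplakin 3a, was at 9417 CPM (9096 to 9745) in 25 of 26 young cells and 5680 CPM (5497 to 5868) in 26 of 28 old cells, and had no UMI in any TAL-like or DCT-CNT-like cell. Psca was at 8169 and 5693 CPM. Of the 9 genes only Krt5, the keratin of basal cells, was 2-fold apart, from 71 UMIs in 9 young cells to 445 UMIs in 14 old cells (log2 1.76, 1.396 to 2.14). The list's median log2 ratio was −0.30, and over all 3202 genes tested in this group 3.94% were higher and 1.66% lower. Krt5 was found beside Upk3a in 8 young and 12 old cells and without it in 1 and 2. Leading genes other than the markers were Ly6d, with 5660 UMIs in 46 of 54 cells and 7 in the other 172 selected cells, Sprr2a3, with 1109 UMIs in 30 cells and none elsewhere, and Hopx, Ctse and Capn13.

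**Figure D3:**
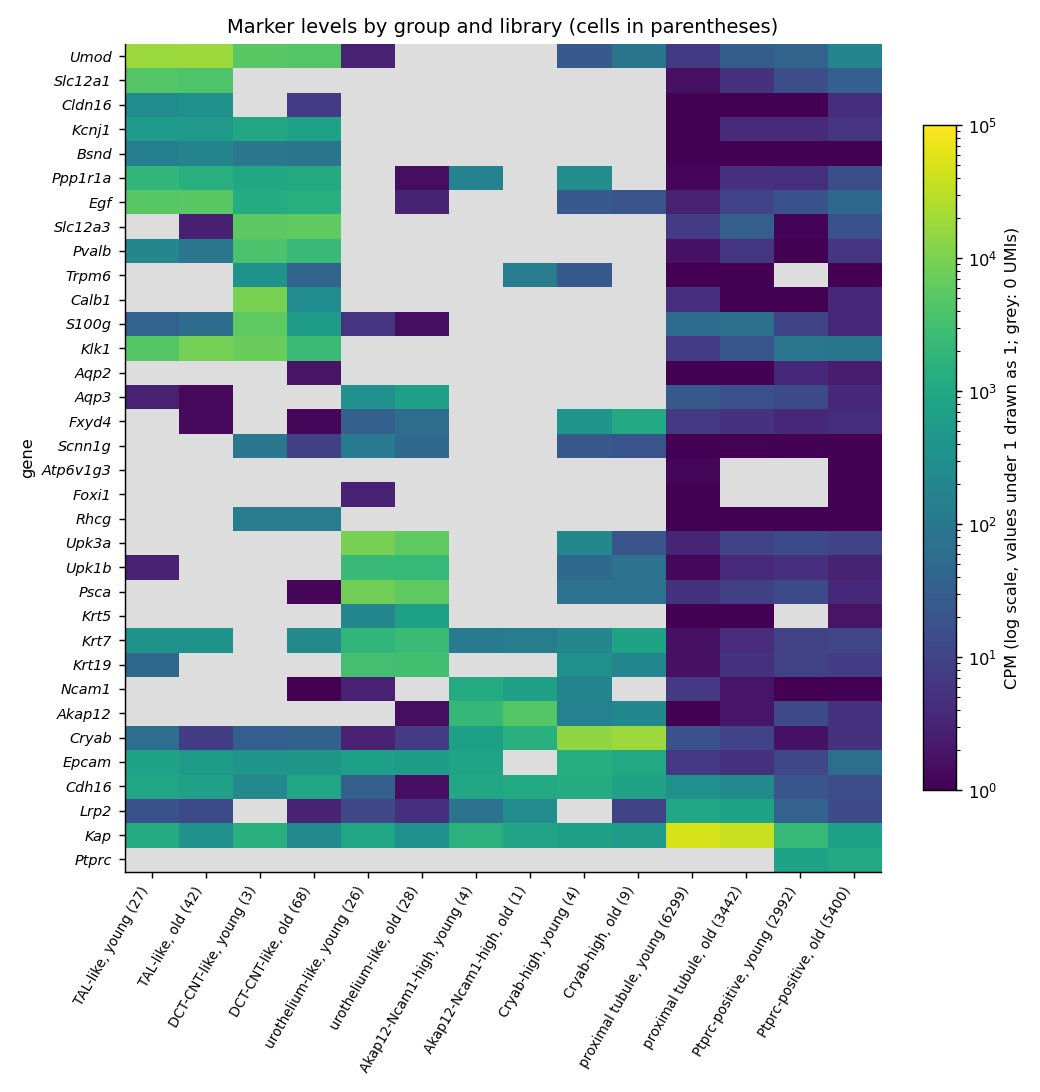
Level (CPM, colour on a log scale, grey for no UMI) of marker genes (rows) in each group and library (columns, number of cells in parentheses), with proximal tubule and Ptprc-positive cells at the right. Umod and Slc12a1 mark the TAL-like columns, Slc12a3 and Pvalb the DCT-CNT-like columns and Upk3a and Psca the urothelium-like columns, while Atp6v1g3 is grey in every group of selected cells drawn. The 3 principal-like and intercalated-like cells and the unassigned cells (2 young and 9 old) are not drawn, and values under 1 CPM are drawn as 1.

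Over all selected cells against all other kept cells, the 20 leading genes outside the rule stood 7.31 to 7.997 apart on the log2 scale, and few of them were shared by all 3 groups. Bsnd, a chloride channel subunit gene, Kcnj1 and Tmem213 were shared by TAL-like and DCT-CNT-like cells, at 167 and 84.2 CPM for Bsnd and 509 and 734 CPM for Kcnj1, and Bsnd and Kcnj1 had no UMI in urothelium-like cells. Plet1, S100a14 and Oit1 were mainly urothelial, with 1391 CPM of Plet1 in urothelium-like and 53.5 and 1.83 CPM in TAL-like and DCT-CNT-like cells. Mal, a gene of apical membrane sorting, was at 1382, 1471 and 2245 CPM in the 3 groups and had a UMI in 62 young and 153 old cells.

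Genes of antigen presentation were higher in the old cells in both groups with enough cells of each age. The 11 genes of the list summed to 100 UMIs (290 CPM) in young and 3450 UMIs (4669 CPM) in old TAL-like cells. The 6 of them with at least 50 UMIs over both libraries were all higher in old, but Psmb8, Psmb9 and Tap1 passed that limit only through the old library, so nothing is read from this count. H2-K1, a class I heavy chain gene at chr17:33996017-34000347, went from 25 UMIs in 12 of 27 young cells to 1357 UMIs in 41 of 42 old cells, or from 72.5 CPM (46.9 to 107) to 1836 CPM (1740 to 1937), a log2 ratio of 4.66 (4.09 to 5.30). B2m was at 52.2 and 1000 CPM (4.26, 3.59 to 5.02) and H2-D1 at 133 and 1330 CPM (3.32, 2.89 to 3.78). Psmb8 and Psmb9, subunits of the immunoproteasome, had 1 and 4 young UMIs and 191 and 95 old UMIs, and Tap1, the peptide transporter, had 2 and 56.

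The higher level was spread over the cells. The summed level of B2m, H2-K1 and H2-D1 was 0, 182 and 927 CPM in the lowest, median and highest young TAL-like cell and 0, 2933 and 14605 CPM in the old, so the ranges overlapped while the old median was above the highest young cell. Within cells with a Y-linked UMI the log2 ratio of H2-K1 was 4.79 and within cells with an Xist UMI it was 4.48. Without the cell that held the most H2-K1 UMIs in each library it was 4.79, and among cells with no UMI of the 5 proximal tubule genes, of which 5 were young TAL-like cells, it was 4.93. Igkc moved with these genes in the same cells, from 1 UMI to 78 UMIs, and its part in the result was not tested. Thinned to 1000 UMIs per cell, H2-K1 had a UMI in 1 of 27 young and 30 of 42 old TAL-like cells (3.704% and 71.4%).

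**Figure D4:**
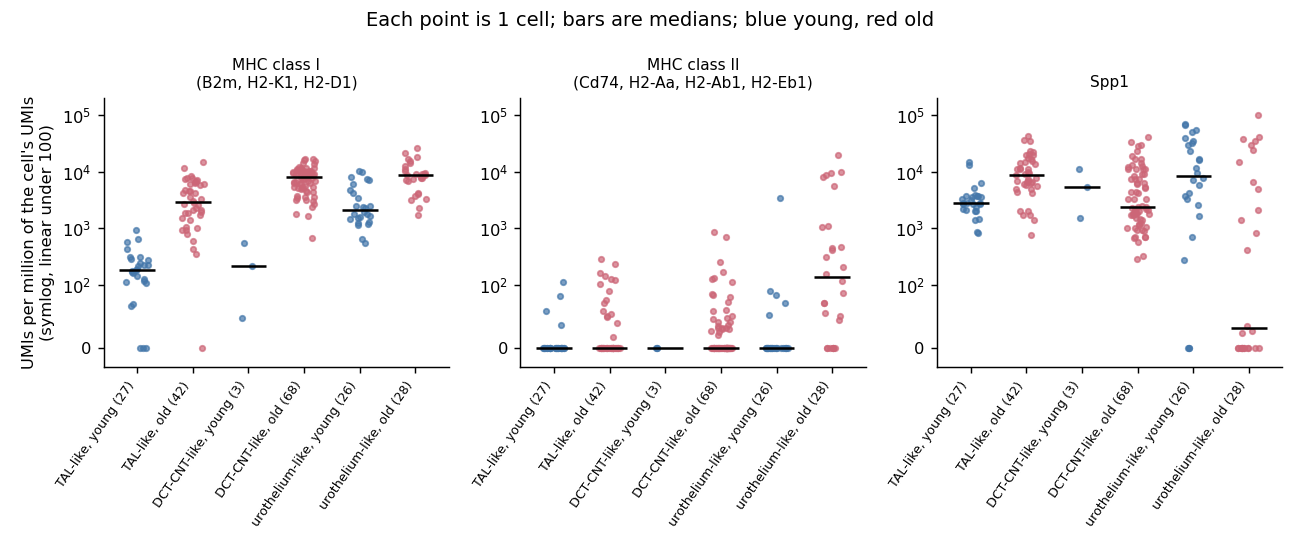
UMIs of 3 MHC class I genes, 4 MHC class II genes and Spp1 as CPM of the cell (vertical axes, symmetric log scale) in each TAL-like, DCT-CNT-like and urothelium-like cell by library, with medians as bars. Old TAL-like cells had a median class I level of 2933 CPM against 182 CPM in young cells, and class II reached 19283 CPM in single old urothelium-like cells.

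The young urothelium-like cells had a higher class I level than young TAL-like cells, and their ratio to the old cells was smaller, a contrast that was not tested. H2-K1 was at 1483 CPM (1358 to 1617) in young against 4505 CPM (4343 to 4672) in old cells, a log2 ratio of 1.60 (1.47 to 1.74), and B2m at 1141 and 3323 CPM (1.54, 1.39 to 1.70). Within cells with an Xist UMI and with a Y-linked UMI the log2 ratio of H2-K1 was 1.77 and 1.65. The 11 genes of the list summed to 4347 and 14447 CPM. The 10 genes with at least 50 UMIs were all at least 2-fold higher, where 3.94% of 3202 genes were higher and 1.66% lower. The class II genes and some others among them passed that limit only through the old library. Cd74, H2-Eb1 and H2-Ab1 had 37, 5 and 9 young UMIs, so nothing is read from this count. The 3 class I genes summed to 2122 CPM in the median young and 8749 CPM in the median old cell, with overlapping ranges. In proximal tubule cells of the same libraries all 11 genes were 2-fold higher, at a median log2 ratio of 5.78, where 4.04% of 13476 genes were higher and 3.85% lower. In Ptprc-positive cells, where 6.79% of 13057 genes were higher and 8.29% lower, 3 of 11 were higher and 2 lower. H2-K1 was at 28.6 and 577 CPM in proximal tubule cells and 1724 and 3650 CPM in Ptprc-positive cells.

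MHC class II was found mainly in the urothelium-like cells among the selected cells. Cd74, the invariant chain gene, had 37 UMIs in 2 young cells, of which 36 lay in a single cell, and 1020 UMIs in 17 of 28 old cells, a log2 ratio of 3.897 (3.42 to 4.41) that was 2.37 in cells with an Xist UMI and 7.97 in cells with a Y-linked UMI, and 8.59 without the top cell of each library. H2-Eb1, H2-Ab1 and H2-Aa had log2 ratios of 4.85, 3.62 and 2.90. Of the 17 old cells with Cd74, 11 held Krt5 as well, and 3 old cells held Krt5 without Cd74. In TAL-like cells the 4 class II genes summed to 4 UMIs in 4 young cells and 29 UMIs in 16 of 42 old cells, or 11.6 and 39.2 CPM, and in old DCT-CNT-like cells to 66 UMIs in 28 of 68 cells, or 41.0 CPM. These levels lie under those of proximal tubule cells, where Cd74 alone was at 25.4 CPM in young and 2382 CPM in old.

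Interferon response genes had a higher summed level in the old cells of both groups, and whether the groups differ in this was not tested. The 14 genes of the list summed to 53 UMIs (154 CPM) in young and 652 UMIs (882 CPM) in old TAL-like cells, and to 190 UMIs (547 CPM) and 552 UMIs (859 CPM) in urothelium-like cells. In TAL-like cells 6 genes reached 50 UMIs over both libraries, each only through the old library, so their shared direction is not read as support. Fewer reached it in subsets of cells, with 1 of 1 gene higher among cells with an Xist UMI, 2 of 2 among cells with a Y-linked UMI and 1 of 1 among cells with no proximal tubule UMI. Isg15, a ubiquitin-like protein gene, went from 5 to 78 UMIs (2.86, 1.58 to 4.53). Iigp1 and Gbp2, of the GTPase families, had no young UMI and 66 and 57 old UMIs, log2 ratios of at least 3.36 and 3.15. Gbp2 lay in only 6 old cells, and Cxcl10 in 13, of which a single cell held 77.4% of 230 UMIs and without which its log2 ratio was 0.98 in place of 2.42. In urothelium-like cells 1 of 5 genes tested, Irf1, was 2-fold higher, where 3.94% of 3202 genes were higher and 1.66% lower. Isg15 stood at 0.29 (−0.62 to 1.27) in these cells. The count of 1 of 5 was 3 of 5 without the top cell of each gene and 3 of 10 at 20 summed UMIs. A single urothelium-like cell held 18 of the 19 young Gbp2 UMIs of all selected cells.

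**Figure D5:**
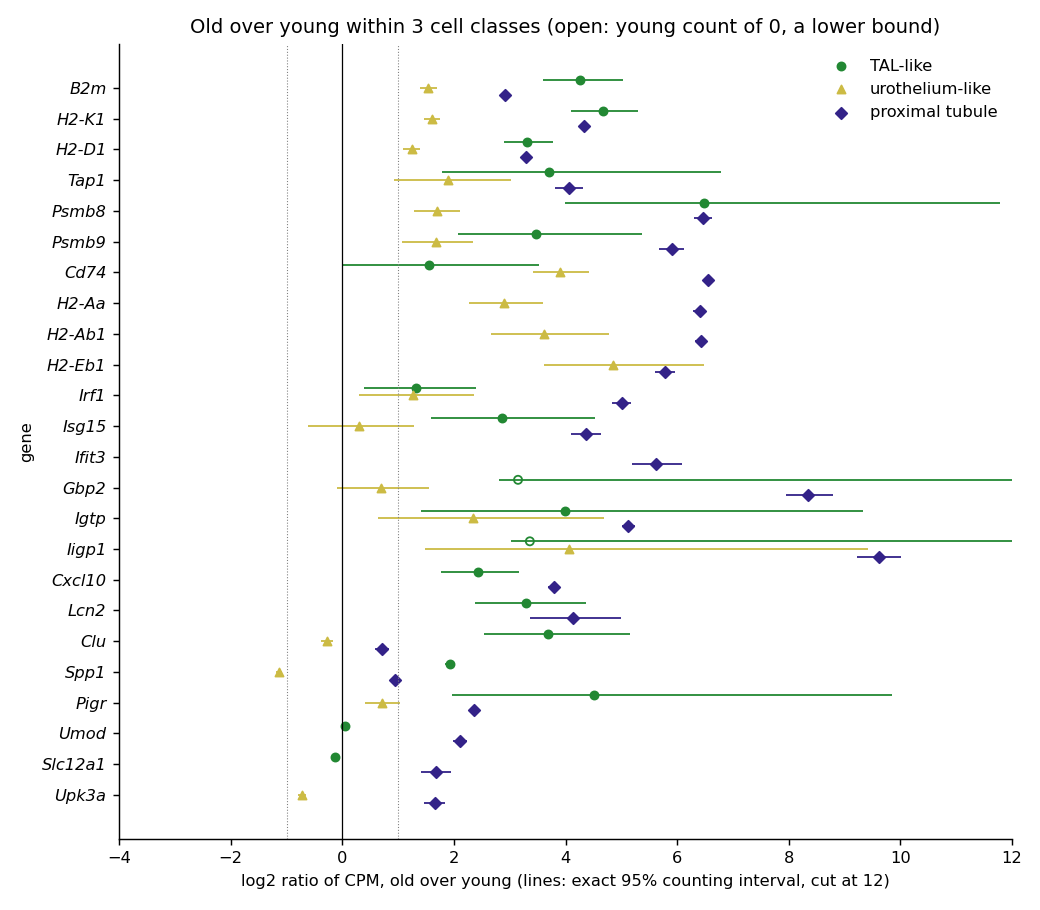
Log2 ratio of CPM, old over young (horizontal axis), with exact 95% counting intervals, for genes (vertical axis) in TAL-like, urothelium-like and proximal tubule cells, for genes with at least 20 UMIs in the class and with open points where the young count was 0 and the value is a lower bound. Class I genes lie between 1.24 (H2-D1, urothelium-like) and 4.66 (H2-K1, TAL-like) in TAL-like and urothelium-like cells, Umod and Slc12a1 lie near 0 in TAL-like cells, and Spp1 lies at 1.92 in TAL-like and −1.13 in urothelium-like cells.

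Within the old library several genes of this list were higher in the DCT-CNT-like than in the TAL-like cells. Of 13 interferon response genes tested, 8 were at least 2-fold higher in DCT-CNT-like cells and none lower. Over all 6012 genes tested between these groups, 5.22% were higher and 3.34% lower. Igtp, Cxcl9, Gbp3 and Ifit1 reached 50 UMIs only through the DCT-CNT-like cells, so nothing is read from the count of 8. Igtp had 530 UMIs against 34 (log2 2.84, 2.34 to 3.39), Iigp1 939 against 66 (2.71, 2.35 to 3.09) and Cxcl10 1421 against 230 (1.51, 1.30 to 1.71), of which a single DCT-CNT-like cell held 37.6%. The class I genes were higher as well but under 2-fold by summed counts, with log2 ratios of 0.96 (H2-K1), 0.96 (B2m) and 0.87 (H2-D1). Their summed level was 684, 7992 and 16839 CPM in the lowest, median and highest old DCT-CNT-like cell. In old TAL-like cells it was 0, 2933 and 14605 CPM, so the ranges overlapped. Summed Igtp, Iigp1, Gbp2 and Gbp3 had a UMI in 52 of 68 and 19 of 42 cells. The 3 young DCT-CNT-like cells had no UMI of these 4 GTPase genes and 5 UMIs of the 3 class I genes.

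Of the 15 genes of the tubular injury list, 7 were tested in TAL-like cells. Of these, 3 (Spp1, Lcn2 and Clu) were 2-fold higher in old and none lower, where 3.64% of 3354 genes were higher and 1.97% lower. Lcn2 and Clu reached 50 UMIs only through the old library, so nothing is read from this count. Spp1, the gene of osteopontin, was at 3203 CPM (3017 to 3398) in young TAL-like cells against 12153 CPM (11903 to 12407) in old ones, with 838, 2841 and 14530 CPM in the lowest, median and highest young cell and 756, 8797 and 42185 CPM in the old, which overlap. Its log2 ratio of 1.92 was 1.54 in cells with an Xist UMI and 2.36 in cells with a Y-linked UMI. Lcn2, the gene of neutrophil gelatinase-associated lipocalin, went from 10 UMIs in 3 cells to 210 in 25 (3.29, 2.38 to 4.37), but its log2 ratio was 0.74 in cells with an Xist UMI and 4.31 in cells with a Y-linked UMI. Clu, the gene of clusterin, went from 6 UMIs to 166 (3.69, 2.54 to 5.16), a log2 ratio that was 1.63 among cells with no proximal tubule UMI, 3.32 in cells with an Xist UMI and 2.57 in cells with a Y-linked UMI. Krt8 (0.06) and Cd24a (−0.16) differed by less than their counting intervals.

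In old DCT-CNT-like cells Clu had 2488 UMIs in 67 of 68 cells, 2.78 above the TAL-like cells on the log2 scale, and Gdf15, a stress-induced cytokine gene, 1292 UMIs in 56 cells, 1.92 above. The transcription factor gene Sox9 had 323 UMIs in 52 cells and 42 in 7 of the TAL-like cells. Of 9 genes of the list tested between these groups 5 were 2-fold higher in DCT-CNT-like and none lower. Sox9 and Krt18 among them reached 50 UMIs only through the DCT-CNT-like cells. In the same comparison 8 of 11 thick ascending limb genes were 2-fold lower. Slc12a1, Cldn16, Cldn10 and Ptger3 had sorted the cells, so their part of that count follows from the sorting. Over all 6012 genes with at least 50 UMIs in both groups together, 5.22% were at least 2-fold higher and 3.34% lower in DCT-CNT-like cells. The DCT-CNT-like cells were deeper, with a median of 24489.5 UMIs against 17970, and the part of depth in these differences was not tested.

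In urothelium-like cells none of 7 tested injury genes was 2-fold higher and 2 were lower, where 3.94% of 3202 genes were higher and 1.66% lower. Spp1 was at 18971 and 8670 CPM, and Igfbp7, an insulin-like growth factor binding protein gene, at 1702 and 622 CPM (−1.45, −1.64 to −1.27). Spp1 had a UMI in 23 of 26 young and 16 of 28 old cells, with 8525 CPM in the median young cell and 30.9 CPM in the median old cell, and the ranges overlapped from 0. Its direction turned in cells with an Xist UMI, where the log2 ratio was 0.26, against −1.48 in cells with a Y-linked UMI.

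Other genes with the largest differences in TAL-like cells were lower in old. Wfdc15b, a gene of the WAP domain family, was at 3557 CPM (3361 to 3762) in young and 1416 CPM (1331 to 1504) in old (−1.33, −1.45 to −1.21). Lpl, the gene of lipoprotein lipase, was at 931 and 313 CPM, Ptgds, the gene of a prostaglandin D synthase, at 131 and 10.8 CPM, and the transcription factor gene Elf3 at 157 and 40.6 CPM. For Wfdc15b and Lpl the log2 ratios were −0.57 and −0.55 among cells with no proximal tubule UMI, and −0.64 and −0.80 in cells with an Xist UMI, under 2-fold in each, and −1.61 and −1.72 in cells with a Y-linked UMI. Markers of the proximal tubule were lower in the same cells, with 4 of 4 tested genes at least 2-fold lower. Over all 3354 genes tested in TAL-like cells, 1.97% were lower and 3.64% higher. The 13 proximal tubule genes of the list summed to 1901 and 669 CPM, and their part in the differences above was not tested. Kap was at 1193 and 337 CPM. Of 10 energy metabolism genes tested, Ckb, the gene of brain creatine kinase, was 2-fold lower (−1.14, −1.34 to −0.94) and the median was −0.32, and of 8 immediate early genes Ier2 was 2-fold lower, with a median of −0.50.

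In urothelium-like cells, 3 of 7 tested immediate early genes were 2-fold higher in old, where 3.94% of 3202 genes were higher and 1.66% lower. The 3 were Atf3, at 274 and 1027 CPM (1.91, 1.60 to 2.23), Egr1 at 1.47 and Fosb at 1.09. Several of the genes furthest apart in this group rested on few cells. Ifitm1 had 170 UMIs in 5 old cells and none in young, and a single cell held 156 of them. Trem2 had 124 UMIs in 5 cells with 85 in a single cell, and Reg3g 146 in 5 cells with 118 in a single cell. The pore-forming protein gene Gsdmc2 was lower in old, with 90 UMIs in 11 young and 38 in 9 old cells (−2.13, −2.72 to −1.57), but stood at 1.26 in cells with an Xist UMI. Hemoglobin RNA differed as well, with 706 UMIs of Hbb-bs in 4 young urothelium-like cells and none in old.

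Over all selected cells, 343 of 8304 genes (4.13%) were at least 2-fold higher in old and 309 (3.72%) lower, but that sum mixes the ages with the different share of each segment. Slc12a3, at 203 and 3042 CPM, Ltc4s and Pgam2 stood among the 10 highest, and 7 of 9 urothelial genes among the lower, and those groups' shares differed between the ages. Ccl5, a chemokine gene of T and NK cells, had 3 UMIs in 3 young cells and 2330 in 32 old cells, and 2 cells held 1064 and 892 of these. Ccl5 was at 1112 and 4956 CPM in Ptprc-positive cells.

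The study asked how innate lymphoid cells are held in the kidney, for which the epithelial ligands of integrins and the growth factors and cytokines of the epithelium are of interest. Cdh1, the gene of E-cadherin, was at 276 CPM (241 to 313) in 52 of 69 young and 281 CPM (263 to 300) in 135 of 157 old cells, against 10.6 and 14.1 CPM in proximal tubule cells, and was at 444 and 453 CPM in urothelium-like cells and 142 and 187 CPM in TAL-like cells. Vcam1 had 24 UMIs in 6 young and 56 in 5 old cells, Fn1 had 1 and 9 UMIs, and Madcam1 had 1 young UMI and none in old. Egf was at 2072 and 1895 CPM over all cells. Of the epidermal growth factor family, Areg, the gene of amphiregulin, had 1 young UMI and 55 old UMIs in urothelium-like cells, and these lay in 3 cells with 31 in a single cell. Il33, an alarmin that acts on innate lymphoid cells, had no young UMI, which allows up to 3.53 CPM, and 42 UMIs in 4 old cells, of which 3 were urothelium-like. Il25 had 12 UMIs in a single young cell and Tslp 1 and 7 UMIs.

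Genes of the cell cycle were at or near 0 in the young cells. At least 3 of the 7 genes Mki67, Top2a, Cdk1, Ccnb1, Ccnb2, Ccna2 and Birc5 had a UMI in none of 69 young cells (0% to 5.21%) and in 5 of 157 old cells (3.18%, 1.04% to 7.28%), of which 2 were TAL-like and 3 DCT-CNT-like. Mki67 had 102 UMIs in 7 old cells, 64 of them in a single DCT-CNT-like cell. The 10 genes of the cell cycle list summed to 22 UMIs (25.9 CPM) in young and 601 UMIs (187 CPM) in old selected cells, and to 8 and 138 UMIs in TAL-like cells. Of these 10 genes, 7 reached 50 UMIs, and 6 of the 7 were at least 2-fold higher, where 4.13% of 8304 genes were higher and 3.72% lower. Each of the 7 reached that limit only through the old library, so nothing is read from this count.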

How the data were processed

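Kidney cells of 1 young and 1 old pooled library were read on the 10x 3' v3.1 platform. The authors deposited raw UMI counts of 31053 genes per barcode, made with Cell Ranger (3 per the labels, 3.1.0 in the matrix header) on mm10. The study's filter (200 genes or more, no more than 20% of UMIs mitochondrial) left 11429 young and 10232 old cells with 145647185 and 119218130 UMIs. Doublets were marked with Scrublet in Scanpy 1.11.5 and kept, and none was a selected cell. Each cell was given the marker group with the most UMIs (at least 5, and at least 2 times the next group). The members and gene lists were chosen with earlier results of these data known, and the grouping rule was set after values were seen.

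Counts were summed per library and group and given as CPM with exact Poisson intervals. Log2 ratios carry exact binomial intervals, shares exact Clopper-Pearson intervals, and a count of 0 is set against a floor of 3 counts per library. All intervals cover counting error only. Genes with at least 50 UMIs over both libraries were counted when 2-fold apart. Genes named outside the lists are the 10 at each end of the ratio by the interval bound nearest 0 and the 20 or 10 leading genes of a class. Others (Ccl5, Krt5, Cldn10 and the pairs of genes) were singled out after their values were seen. Shares of cells with a UMI were compared after thinning to 1000 UMIs (seed 7), which left out 1 young and 1 old cell. Gene positions are from GENCODE M21 and promoter windows from RefSeq. Python 3.11.15, NumPy 2.4.6, SciPy 1.17.1, pandas 2.3.3 and Matplotlib 3.10.9 were used, and the ratio and its interval were tested on simulated data. No batch is given in the labels, and age and library cannot be told apart. Results for some genes are not reported here.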

Additional observations from a re-analysis of the deposited data

Results flagged for a closer look

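Of 2291 genes tested in both TAL-like and urothelium-like cells, 3 were at least 2-fold apart between the ages in opposite directions. Their intervals also had to exclude 0 in both groups, and the difference between the groups was not tested. Spp1, the gene of osteopontin, had a log2 ratio (old over young) of 1.92 in TAL-like and −1.13 in urothelium-like cells, where it was 0.26 among cells with an Xist UMI. Ppp1r15a, a stress response gene, stood at −1.06 (135 and 139 UMIs) in TAL-like and 1.46 (21 and 107 UMIs) in urothelium-like cells. AY036118, a transcript of uncertain annotation, stood at 1.10 (24 and 110 UMIs) in TAL-like and −2.94 (290 and 70 UMIs) in urothelium-like cells.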

How the results depend on the processing

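With 1 library per age no variation between mice can be estimated, and depth limits genes under 50 UMIs. No paired analysis was possible because each age is 1 pooled library and no test was made. The alternatives on cells with Xist or Y-linked UMIs and without the top cell were chosen after seeing the data. Cause was not tested for any of the values below. The share of selected cells was 0.175% in young and 0.674% in old with no proximal gene allowed, 0.324% and 1.22% with at least 4 of the 12 genes, and 1.07% in old with at most 10% mitochondrial UMIs. DCT-CNT-like cells made up 54.4% (at least 4 genes) and 34.0% (10% mitochondrial) of old cells. TAL-like cells made up 25% (no proximal gene, 5 of 20 cells) and 67.6% (at least 4 genes) of young cells. Urothelium-like cells made up 0.8% of old and 13.5% of young cells (at least 4 genes) and 24.7% of old (10% mitochondrial). With at least 4 genes a single old urothelium-like cell was left, so its comparison was not computed.

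Settings that change the cells or the UMI limit also change how many genes are tested. Shares of tested genes were not computed under them, so nothing is read from the size of the counts that follow. Of 122 genes higher in old TAL-like cells, the count was 51 with no proximal gene, 416 at 20 summed UMIs, 65 at 10% mitochondrial and 48 in cells with an Xist UMI. Of 66 lower genes it was 24, 226 and 43 under the first 3 and 39 in cells with a Y-linked UMI. Over all selected cells the higher count of 343 was 635 at 20 UMIs and 715 with groups weighted equally, and the lower count of 309 was 158 with no proximal gene, 620 at 20 UMIs and 122 with a Y-linked UMI. In urothelium-like cells the higher count of 126 was 400 at 20 UMIs and 77 with a Y-linked UMI, and the lower count of 53 was 25 with no proximal gene, 250 at 20 UMIs, 104 by the mean of each cell's CPM and 28 with a Y-linked UMI. Slc12a3 was found in 97.0% and 80.9% of old DCT-CNT-like cells thinned to 2000 and 500 UMIs, and H2-K1 in 88.1% of old TAL-like cells at 2000. The direction reversed in cells with an Xist UMI for Gsdmc2 (1.26) and Spp1 (0.26) in urothelium-like and Slc12a1 (0.19) in TAL-like cells, and in cells with a Y-linked UMI for Umod (−0.16) in TAL-like cells. Egf in TAL-like cells, at 0.07 with an interval that spans 0, was −0.42 in cells with a Y-linked UMI and −0.15 with no proximal gene. None of the selected cells was a called doublet, so leaving out doublets could not change them and tests nothing. Requiring 500 genes left the counts of higher and lower genes as they were. Changing the total moved no ratio of a named gene beyond its interval.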

Other observations

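Cells with high Cryab, the gene of alpha-B crystallin, formed a group of 4 young and 9 old cells, sorted by this gene alone. Leading genes were Fcgbp, with 58 UMIs in 9 of 13 cells, Phgdh, a serine synthesis enzyme gene, with 74 UMIs in 10 cells, and Fxyd4, a regulator of the sodium pump, with 133 UMIs in 9 cells. A further group of 4 young cells and 1 old cell with high Akap12 and Ncam1 was led by Msmp, Adamts5 and Sparc, and held the collagen gene Col4a1 at 2293 CPM with UMIs in 5 of 5 cells against 58.8 CPM in the other selected cells.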
